A study of Homo sapiens with 4 samples.

Results

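The hnRNP and SR proteins were followed at the mRNA level in HCT116 cells, a human colorectal carcinoma line, after suppression of the long noncoding RNA LINC00152. The 37 members, among 19974 gene symbols in the deposited tables, were chosen by symbol: 25 begin with HNRNP and 12 are SRSF followed by a number. The families themselves had been picked from values of the same si-152 and si-NC comparison, above all the listed zeros of HNRNPC and HNRNPD, so every difference between the groups is given as a description. Cells were transfected for 36 h with 100 nM of a scramble siRNA (si-NC, 2 replicates) or 100 nM of siRNA against LINC00152 (si-152, 2 replicates), and total RNA was sequenced. All 4 libraries come from a single cell line in DMEM with serum, and the labels name the replicates as biological. LINC00152 itself was not analysed here, so its suppression was not checked in these libraries.

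Heterogeneous nuclear ribonucleoproteins (hnRNPs) coat nascent transcripts and often silence splice sites, and several of them also act in export, stability and translation of mRNA. SR proteins carry RNA recognition motifs and a domain rich in arginine and serine, bind exonic enhancers and recruit the spliceosome, so the balance between both families shapes the choice of alternative exons. Many genes of both families limit their own level by splicing in a poison exon that sends the transcript to nonsense-mediated decay. In colorectal and other epithelial tumours several members, such as HNRNPA1 and SRSF1, are known as abundant regulators of isoform choice.

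The deposited values, 1 per symbol and library, were taken to be FPKM (fragments scaled to transcript length and to the size of the library), and their sums lay between 424754 and 534311 per library. The number of reads is unknown, so no counting error can be given. The epithelial markers EPCAM, KRT8, KRT18, KRT19 and CDH1 were at 20.7 FPKM or higher in every library, while CDH17, CEACAM5, LGALS4 and VIL1, other markers of the colorectal epithelium, were at 0.0567 FPKM or lower. The leukocyte marker PTPRC was listed at 0 in all 4 libraries. Fold changes below are si-152 over si-NC on the scale of log2(FPKM + 1), with the standard error (SE) of limma's moderated fit. It was run on 11222 genes that reached 1 FPKM in 2 or more libraries.

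Most members were abundant in HCT116 cells. Of the 37, 32 passed the filter, 21 hnRNP and 11 SRSF genes. HNRNPA1 was the highest member and HNRNPA2B1 the next in every library. The median of the mean FPKM was 104.1 over the tested hnRNP genes (95.9 without HNRNPC and HNRNPD) and 61.9 over the tested SRSF genes. SRSF9 was the highest SR gene, at 169.7 and 208.7 FPKM with si-NC against 159.7 and 207.9 FPKM with si-152. The members that did not pass were HNRNPCL1, HNRNPCL2, HNRNPCL3 and HNRNPCL4, intronless or nearly intronless relatives of HNRNPC listed at 0 in all libraries, and SRSF12, listed at 0 in 3 libraries and at 0.0154 FPKM in si-152 replicate 2. HNRNPR was the lowest member that passed, with a mean of 1.74 FPKM, and HNRNPC passed through the si-152 libraries alone.

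**Figure D1:**
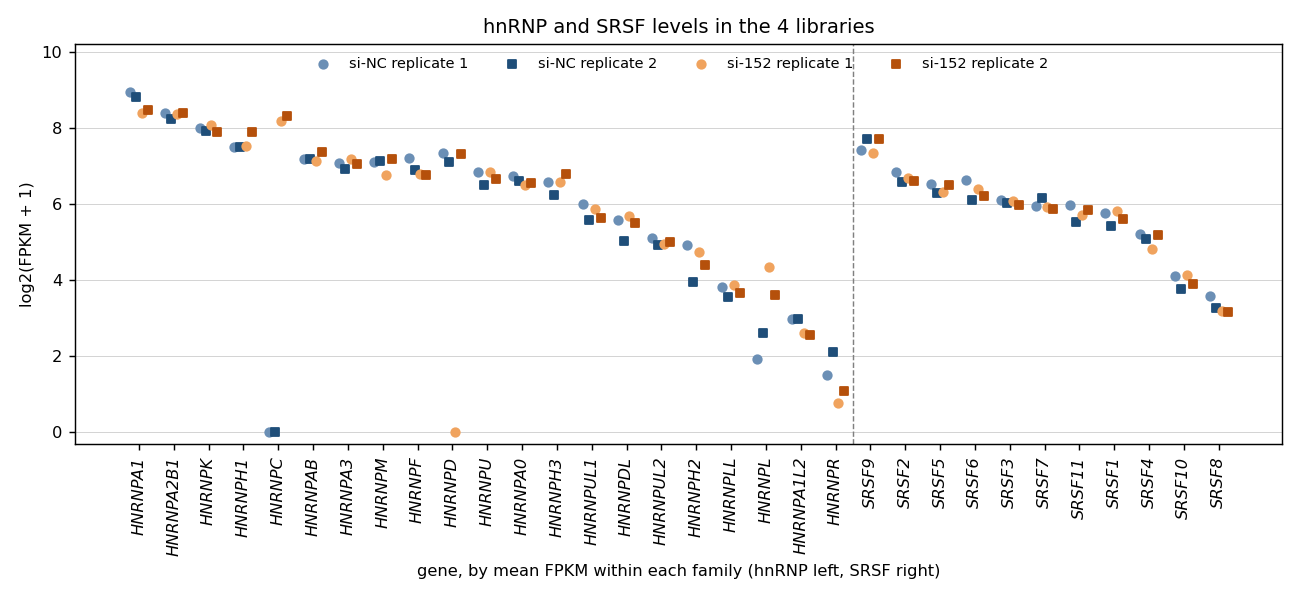
FPKM of the 32 tested members in each of the 4 libraries, as log2(FPKM + 1), ordered by mean within the hnRNP genes (left) and the SRSF genes (right). The 4 points of most genes lie close together, from HNRNPA1 at the top to HNRNPR at the bottom, while HNRNPC (both si-NC libraries) and HNRNPD (si-152 replicate 1) have points at 0.

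The summed level of either family differed little between the groups. SRSF genes summed to 777.7 and 723.9 FPKM with si-NC against 706.0 and 745.4 FPKM with si-152. Without HNRNPC and HNRNPD, the hnRNP genes summed to 2331 and 2091 FPKM with si-NC against 2113 and 2188 FPKM with si-152. Both sums overlapped between the groups. With HNRNPC and HNRNPD the hnRNP sums were 2491 and 2227 FPKM with si-NC against 2402 and 2664 FPKM with si-152, which also overlapped. In bulk RNA such a level is an average, and fewer cells with the transcript cannot be told apart from less of it per cell.

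Few members stood past an unadjusted p under 0.05 by limma. This is the study's significance threshold, used here without its cuts on fold change and on FPKM instead of counts. HNRNPC and HNRNPL were higher (2 of 32, against 1.89% of all tested genes called higher), and HNRNPR was lower (1 of 32, against 2.5% called lower). No SRSF gene was called in either direction. Without HNRNPC and HNRNPD, whose listed zeros were among the values that chose the families, the counts were 1 of 30 higher and 1 of 30 lower. No member but HNRNPC passed an adjusted p under 0.05 (0.0178% of the tested genes did), and its call rests on the listed zeros and on a filter it passed in one group alone, so nothing is read from it. The median log2 fold change was 0.07 over the 21 hnRNP genes and -0.05 over the 11 SRSF genes, beside 0.02 over all tested genes. In 4 members the si-152 libraries were both higher than either si-NC library (16.5% of all tested genes), and in 7 members both were lower (13.9% of all tested genes). With HNRNPC and HNRNPD left out, both si-152 libraries were higher in 3 of 30 members and lower in 7.

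HNRNPC forms a tetramer that binds uridine-rich tracts of nascent transcripts and keeps cryptic exons from being spliced in. Its value was 288.7 and 318.5 FPKM with si-152, while both si-NC tables listed it at 0. The groups were apart only through these listed zeros, from which nothing is read, and in si-152 HNRNPC was the third most abundant member. No fold change is given for HNRNPC, because its si-NC values are listed at 0. HNRNPD (AUF1), which binds AU-rich elements and speeds mRNA decay, had 159.6 and 136.4 FPKM with si-NC. Its value was listed at 0 in si-152 replicate 1 and was 157.0 FPKM in si-152 replicate 2. The si-152 library with a value lay inside the range of the si-NC libraries, and with the 0 left out the log2 fold change of HNRNPD was 0.09 (SE 0.24). Zeros in a gene above 20 FPKM elsewhere were found in 6 genes of the tables, and both members are among them. Whether these zeros are failed estimates was not tested. With both genes left out, 1 member was called higher, 1 was called lower, and the hnRNP median stayed at 0.07.

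The HNRNPC gene lies on the minus strand at chr14:21209136-21269494 of GRCh38 in the GENCODE 29 annotation, which names 9 pseudogenes after it. Of the 50-base words in its longest coding transcript, 10.9% also occur in transcripts of other genes, most of them in the pseudogene HNRNPCP2 (10.0%) and only 0.74% in other coding genes. The coding relative HNRNPCL1, listed at 0 in all libraries, is shown beside HNRNPC to make visible how alike the coding bases of these genes are. The 60 bases start at coding base 242 of both transcripts, in exon 6 of 11 of HNRNPC (chr14:21231013-21231072, minus strand) and in exon 2 of 2 of HNRNPCL1 (chr1:12847989-12848048, minus strand), and capitals mark the 3 bases at which they differ.
HNRNPC: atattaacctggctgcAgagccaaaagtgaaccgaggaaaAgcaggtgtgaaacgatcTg
HNRNPCL1: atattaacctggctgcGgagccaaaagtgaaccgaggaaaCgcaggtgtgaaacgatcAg
None of the HNRNPC pseudogenes is among the 37 members.

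HNRNPL and HNRNPR, the other called members, were both at low levels for their family. HNRNPL binds CA repeats and represses or activates exons next to them. It was at 2.79 and 5.12 FPKM with si-NC against 19.4 and 11.3 FPKM with si-152. Both si-152 libraries were higher than both si-NC libraries, with means of 3.96 ± 1.65 and 15.3 ± 5.74 FPKM (SD, n = 2 each). The log2 fold change was 1.71 (SE 0.29), and it was larger in pair 1 (2.42) than in pair 2 (1.00). HNRNPL did not pass the adjusted threshold in the fit by group alone. Its unadjusted call held under each alternative that kept all 4 libraries, and its log2 fold change was 1.35 to 2.08 with any single library left out. Its paralog HNRNPLL, a regulator of exon skipping in lymphocytes, was at 13.1 and 10.8 FPKM with si-NC against 13.6 and 11.8 FPKM with si-152, so these groups overlapped.

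HNRNPR, a relative of SYNCRIP (hnRNP Q) with roles in mRNA transport, was at 1.83 and 3.31 FPKM with si-NC against 0.714 and 1.13 FPKM with si-152. Both si-152 values were below both si-NC values. The log2 fold change was -0.87 (SE 0.25), with -0.72 in pair 1 and -1.02 in pair 2. HNRNPR did not pass the adjusted threshold in the fit by group alone. At these low levels the size depends on the pseudocount, and with 0.1 in place of 1 the log2 fold change was -1.36. Without si-NC replicate 1 the log2 fold change of HNRNPR was -1.17. Without si-NC replicate 2 its log2 fold change was -0.57 and it was no longer called. Under a filter of 1 FPKM in all 4 libraries, HNRNPR and HNRNPC were not tested. The tables gave HNRNPR and HNRNPL the lowest levels of all tested hnRNP genes beside HNRNPA1L2. Whether the low values of HNRNPR and HNRNPL are failed estimates was not tested. Of the 50-base words of HNRNPL, at chr19:38836388-38852347 on the minus strand, 32.3% occur in other genes, led by the overlapping gene AC008982.1 (21.1%) and the pseudogene HNRNPLP2 (15.6%). For HNRNPR, at chr1:23303771-23344336 on the minus strand, this share was 2.01%.

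**Figure D2:**
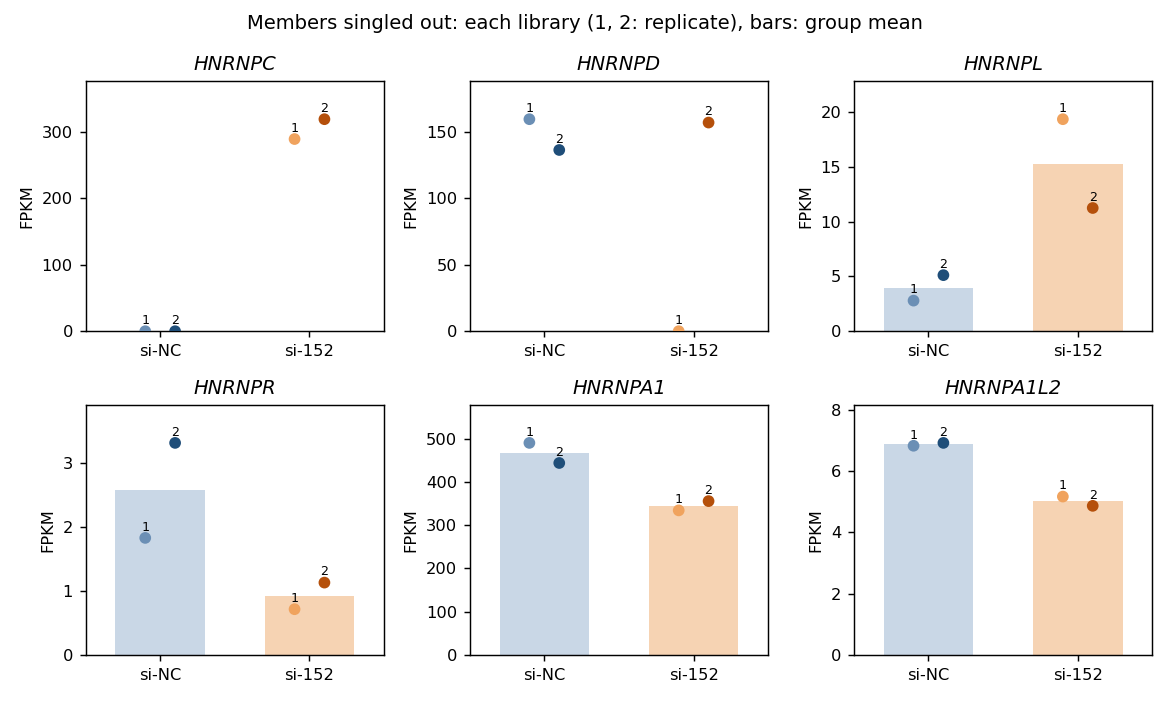
FPKM of 6 members in each library (points, numbered by replicate) for si-NC (blue) and si-152 (orange), with bars for the group mean, left out for HNRNPC and HNRNPD because of their values at 0. The groups are separate for HNRNPL, HNRNPR, HNRNPA1 and HNRNPA1L2, and overlap for HNRNPD. For HNRNPC they are apart only through the listed zeros of both si-NC libraries, and nothing is read from this.

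HNRNPA1, the most abundant member, binds UAG-containing silencers, shuttles between nucleus and cytoplasm and opposes SRSF1 at many exons. It was at 490.4 and 443.9 FPKM with si-NC against 334.3 and 355.8 FPKM with si-152. Both si-152 libraries were below both si-NC libraries, with means of 467.2 ± 32.9 and 345.0 ± 15.2 FPKM (SD, n = 2 each). The log2 fold change was -0.44 (SE 0.22), with -0.55 in pair 1 and -0.32 in pair 2, and HNRNPA1 did not pass the unadjusted threshold. With no mean-variance trend HNRNPA1 was called lower. The difference kept its sign with any library left out (-0.51 to -0.36) and under 3 other scalings (-0.45 to -0.33).

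HNRNPA1L2, a retrocopy of HNRNPA1 without introns, went the same way at a far lower level. It was at 6.82 and 6.91 FPKM with si-NC against 5.16 and 4.86 FPKM with si-152, and its log2 fold change was -0.39 (SE 0.18), and it too missed the threshold, though it passed under 3 other scalings. The ratio of HNRNPA1L2 to HNRNPA1 was 0.0139 and 0.0156 in si-NC and 0.0154 and 0.0137 in si-152, so it overlapped between the groups. Of the 50-base words of HNRNPA1L2, 47.6% are also in HNRNPA1, and GENCODE 29 names 74 pseudogenes after HNRNPA1. How the authors' counting placed reads that fit several of these copies is not given in the sources used here. Both values are therefore uncertain, and whether they depend on each other was not tested.

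Of the other A/B type hnRNPs, HNRNPA0 was lower in both si-152 libraries and the rest overlapped. HNRNPA2B1, which also reads purine-rich silencers and sorts RNAs for transport, was at 332.3 and 299.7 FPKM with si-NC against 325.3 and 335.5 FPKM with si-152. Its groups overlapped, and the log2 fold change was 0.07 (SE 0.21). HNRNPA3 (0.12, SE 0.18) and HNRNPAB (0.07, SE 0.19) also overlapped. HNRNPA0, a kinase-regulated binder of AU-rich mRNAs, was at 106.3 and 95.4 FPKM with si-NC against 89.8 and 92.2 FPKM with si-152. Both of its si-152 values were lower, with a log2 fold change of -0.14 (SE 0.17) that missed the threshold.

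HNRNPF and HNRNPH bind runs of guanines and can act on the same exons. HNRNPF was at 148.0 and 116.8 FPKM with si-NC against 108.9 and 107.1 FPKM with si-152, while HNRNPH1 was at 180.8 and 178.5 FPKM with si-NC against 181.7 and 237.3 FPKM with si-152. HNRNPF was thus lower and HNRNPH1 higher in both si-152 libraries, with log2 fold changes of -0.28 (SE 0.19) and 0.21 (SE 0.21), neither of them called. In si-152 replicate 1 HNRNPH1 was barely above si-NC replicate 1, a log2 difference of 0.0071 in pair 1, against 0.41 in pair 2. HNRNPH3 was at 94.8 and 74.8 FPKM with si-NC against 95.2 and 109.2 FPKM with si-152, with the same pattern (0.0068 in pair 1 and 0.54 in pair 2). HNRNPH2, on the X chromosome, was at 29.2 and 14.5 FPKM with si-NC against 25.9 and 20.2 FPKM with si-152, so its replicates were further apart than its groups.

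The remaining hnRNP genes overlapped between the groups, with log2 fold changes from -0.14 for HNRNPM to 0.29 for HNRNPDL. HNRNPK, a KH-domain protein that binds cytosine-rich RNA and DNA, was at 253.2 and 241.2 FPKM with si-NC against 269.8 and 236.6 FPKM with si-152. Its log2 fold change was 0.03 (SE 0.20). HNRNPU, the scaffold attachment factor that links RNA to chromatin, had a log2 fold change of 0.09 (SE 0.19). HNRNPUL1 (-0.04, SE 0.20) and HNRNPUL2 (-0.03, SE 0.16) were as close to 0. HNRNPDL, the paralog of HNRNPD, was at 46.5 and 31.7 FPKM with si-NC against 50.3 and 44.5 FPKM with si-152, and the si-NC libraries spanned most of that range.

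Among the 11 tested SR genes, log2 fold changes ran from -0.24 (SRSF8) to 0.11 (SRSF1), and the difference between the groups was smaller than the larger of both replicate differences in every one of them. Over all tested genes the difference between the groups was the larger in 20.7%. Over the 21 hnRNP genes it was so in 5, and in 4 of the 19 other than HNRNPC and HNRNPD. SRSF1, the founding member of the family and a proto-oncogene, was at 53.1 and 42.2 FPKM with si-NC against 54.8 and 47.9 FPKM with si-152. Its groups overlapped. SRSF2, which binds exonic enhancers in the nucleus without shuttling as freely as SRSF1, was at 113.5 and 95.2 FPKM with si-NC against 101.1 and 95.4 FPKM with si-152, and its log2 fold change was -0.08 (SE 0.18). SRSF3, the smallest SR protein and a link to mRNA export, had a log2 fold change of -0.05 (SE 0.17), with nearly the same value in both pairs. SRSF5 was at 90.6 and 77.1 FPKM with si-NC against 79.0 and 88.6 FPKM with si-152, with a log2 fold change of 0.0014 (SE 0.18) that was -0.018 after scaling by TMM factors, so it has no direction.

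SRSF7 and SRSF8 were the SR genes whose si-152 libraries both lay below the si-NC libraries. SRSF7, an SR protein with a zinc knuckle, was at 60.5 and 70.2 FPKM with si-NC against 59.5 and 57.5 FPKM with si-152. SRSF8, a retrogene copy related to SRSF2, was at 10.9 and 8.66 FPKM with si-NC against 8.13 and 8.04 FPKM with si-152. Their log2 fold changes were -0.15 (SE 0.17) and -0.24 (SE 0.19), and neither was called. SRSF6 was at 97.2 and 67.6 FPKM with si-NC against 82.5 and 72.7 FPKM with si-152, so the si-NC replicates enclosed both si-152 values. Several SR genes share transcribed sequence with neighbours: 58.5% of the 50-base words of SRSF1 are also in AC015813.2, 38.9% of those of SRSF9 in GATC and 29.5% of those of SRSF2 in MFSD11. GATC and MFSD11 lie on the opposite strand, and whether reads were counted by strand is not given in the sources used here.

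Direction was shared by both same-numbered pairs in 19 of the 32 tested members. Of these, 10 were higher (35.6% of all tested genes were higher in both pairs) and 9 were lower (27.3% of all tested genes). The remaining 13 members went in opposite directions in the pairs. Without HNRNPC and HNRNPD, 9 of 30 members were higher in both pairs, 9 were lower and 12 went in opposite directions. The median hnRNP difference was -0.04 in pair 1 and 0.15 in pair 2 (-0.04 and 0.12 without HNRNPC and HNRNPD), and the median SRSF difference was -0.17 in pair 1 and 0.10 in pair 2, beside -0.03 and 0.07 over all tested genes. The replicates of a group moved too: 9 of the 11 SRSF genes and 15 of the 21 hnRNP genes were lower in si-NC replicate 2 than in si-NC replicate 1, beside 63.4% of all tested genes. Between the si-152 replicates 7 SRSF and 10 hnRNP genes were lower in replicate 2, beside 51.3% of all tested genes. Of the 19 hnRNP genes other than HNRNPC and HNRNPD, 14 were lower in si-NC replicate 2 and 10 in si-152 replicate 2.

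**Figure D3:**
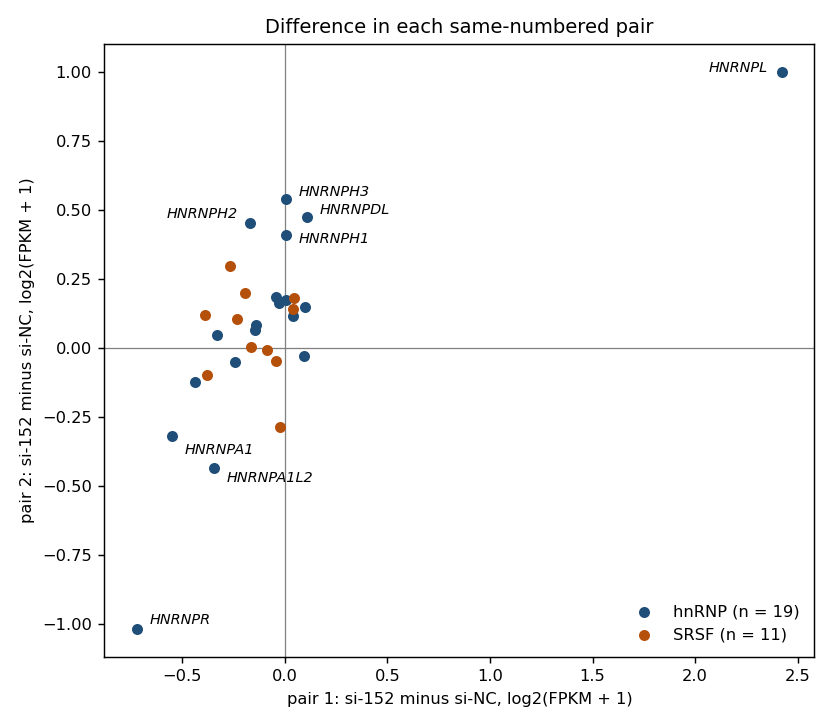
Difference of si-152 minus si-NC on log2(FPKM + 1) in pair 1 (x axis) and pair 2 (y axis) for 30 tested members, without HNRNPC and HNRNPD. HNRNPL is alone at the upper right (2.42 and 1.00) and HNRNPR at the lower left (-0.72 and -1.02), HNRNPA1 and HNRNPA1L2 are below 0 on both axes, and the SRSF genes lie near the origin, with a median of -0.17 on the x axis and 0.10 on the y axis.

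Ratios between members within a library do not change when the whole library is scaled by a single factor, and were computed after the values were seen. The ratio of HNRNPA1 to HNRNPA2B1, which act on overlapping sets of exons, was 1.48 and 1.48 in si-NC and 1.03 and 1.06 in si-152. It was lower in both si-152 libraries, with means of 1.48 ± 0.0037 in si-NC and 1.04 ± 0.023 in si-152 (SD, n = 2 each). The ratio of SRSF1 to HNRNPA1, a classical antagonist pair in splice site choice, was 0.108 and 0.0950 in si-NC and 0.164 and 0.135 in si-152. The ratio of HNRNPL to HNRNPLL was 0.213 and 0.476 in si-NC and 1.43 and 0.957 in si-152, and that of HNRNPF to HNRNPH1 was 0.818 and 0.654 in si-NC and 0.599 and 0.451 in si-152. None of these 4 ratios overlapped between the groups. For HNRNPF to HNRNPH1 this was fixed in advance, because HNRNPF was lower and HNRNPH1 higher in both si-152 libraries. Each of the others holds HNRNPA1 or HNRNPL, which did not overlap by themselves, so the ratios restate differences given above. The ratio of HNRNPA1 to HNRNPK did not overlap either, while that of HNRNPH2 to HNRNPH1 did.

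A lack of overlap was common among such ratios. Of the 435 pairs of the 30 tested members without HNRNPC and HNRNPD, 213 (49.0%) had ratios that did not overlap between si-152 and si-NC. These pairs share members, so they are not independent. The share over pairs of all tested genes was not computed, so the counts below describe the members and nothing more is read from them. HNRNPL was higher relative to all 29 other members and HNRNPR lower relative to all 29. HNRNPA1 was lower relative to 25 and higher relative to 1, and HNRNPA1L2 was lower relative to 23. HNRNPF and SRSF8 were lower relative to 21 and 20 members, while HNRNPH3 and HNRNPDL were higher relative to 19 and 18. SRSF1 was higher relative to 12 and lower relative to 2. The summed SRSF level over the summed hnRNP level, without HNRNPC and HNRNPD, was 0.334 and 0.346 in si-NC and 0.334 and 0.341 in si-152, so it overlapped.

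**Figure D4:**
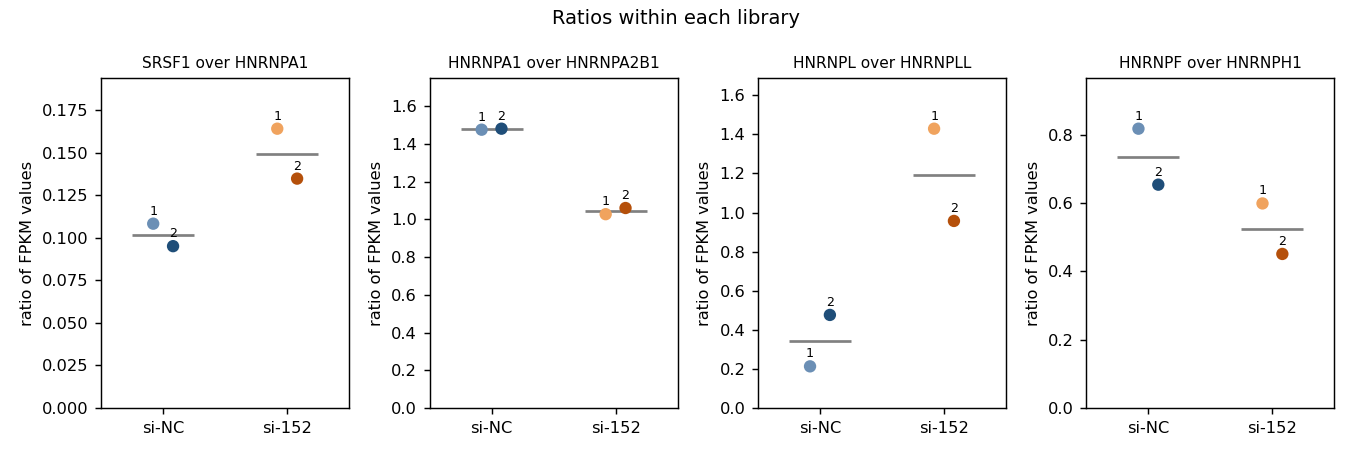
Ratio of FPKM values of 2 members in the same library for 4 pairs, with points numbered by replicate and a line at each group mean. All y axes start at 0, and in each panel the si-152 points lie on one side of the si-NC points, with the replicates closest together for HNRNPA1 over HNRNPA2B1.

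The genes that act with both families were described from 5 lists. Of the 10 tested SR kinases and phosphatases, which set how far SR proteins are phosphorylated, none was called, the median log2 fold change was 0.12, and 6 were higher in both pairs, as were 35.6% of all tested genes. This median was 0.23 without si-NC replicate 1 and 0.032 without si-NC replicate 2. SRPK1, a main SR protein kinase, was at 25.6 and 19.5 FPKM with si-NC against 27.9 and 25.2 FPKM with si-152, which overlapped, and PPP1CA was the most abundant gene of this list (111.4 and 132.7 FPKM with si-NC, 106.9 and 126.6 FPKM with si-152). None of the 21 SR-related proteins, the 6 transport receptors or the 10 factors of nonsense-mediated decay was called, with medians of -0.0036, 0.06 and 0.04. TRA2B led the SR-related proteins (79.2 and 68.1 FPKM with si-NC, 68.5 and 79.5 FPKM with si-152), ALYREF the transport list (216.1 and 308.8 FPKM with si-NC, 204.7 and 228.0 FPKM with si-152) and UPF1 the decay factors (27.1 and 21.3 FPKM with si-NC, 31.4 and 25.8 FPKM with si-152). All 3 overlapped between the groups.

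Of the 44 other tested splicing regulators, 3 were called lower (2.5% of all tested genes were) and none higher (1.89% were), and their median log2 fold change was 0.06. TAF15, an RNA-binding protein with roles in transcription and splicing, was at 10.9 and 13.4 FPKM with si-NC against 3.40 and 5.91 FPKM with si-152, and its log2 fold change was -1.25 (SE 0.24, adjusted p = 0.373 by limma). RBM3, a cold-inducible RNA-binding protein, was at 65.8 and 72.6 FPKM with si-NC against 45.2 and 47.8 FPKM with si-152. PCBP4, a KH-domain relative of HNRNPK, was at 18.7 and 19.1 FPKM with si-NC against 10.7 and 13.2 FPKM with si-152. Both genes were lower in both si-152 libraries, with log2 fold changes of -0.56 (SE 0.17) and -0.63 (SE 0.18), and neither passed adjustment (adjusted p = 0.760 for each by limma). RBM3 was no longer called without si-NC replicate 2 (-0.49), nor PCBP4 without si-152 replicate 1 (-0.48). CIRBP, the related cold-inducible protein and the most abundant gene of this list, was at 310.9 and 294.3 FPKM with si-NC against 257.2 and 312.1 FPKM with si-152, which overlapped. PTBP1, the polypyrimidine tract binding protein also known as hnRNP I, was at 91.8 and 83.0 FPKM with si-NC against 108.2 and 99.5 FPKM with si-152, higher in both si-152 libraries but not called (0.25, SE 0.17).

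**Figure D5:**
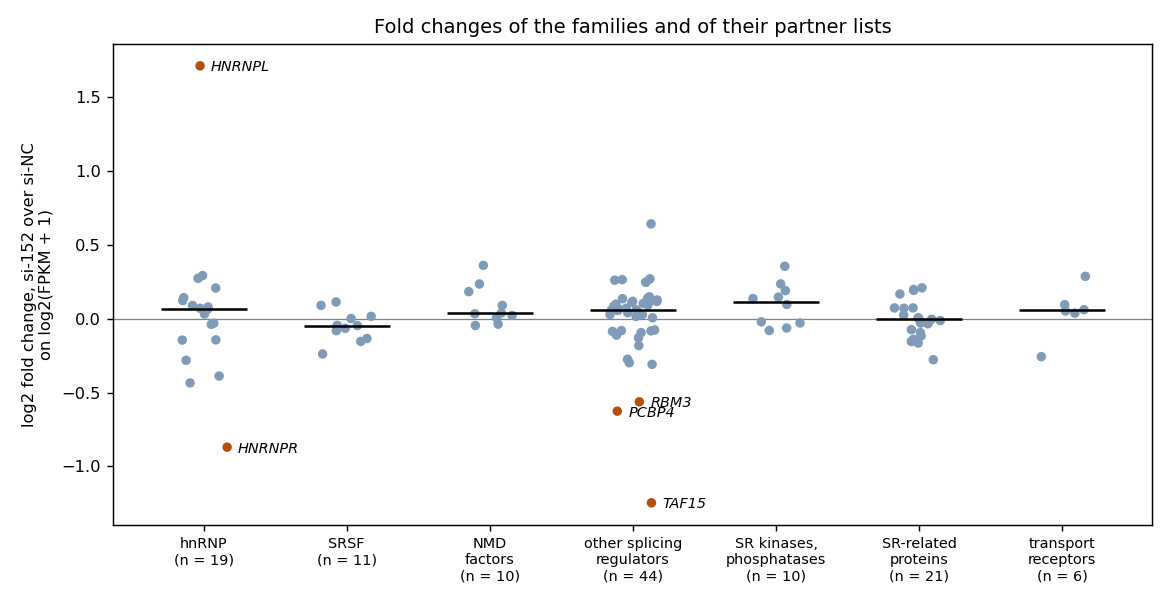
Log2 fold change of si-152 over si-NC for each tested gene of the hnRNP family (without HNRNPC and HNRNPD), the SRSF family and the 5 partner lists, with a black line at each median. Genes with an unadjusted p under 0.05 by limma are orange and named: HNRNPL, HNRNPR, TAF15, RBM3 and PCBP4, and all medians lie between -0.05 and 0.12.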

How the data were processed

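For each library the authors deposited a list of gene symbols, each with a single value. The unit is not named, and the deposited values were read as FPKM because they have decimals, exact zeros and unequal sums. Trimmomatic, TopHat, HISAT2, HTSeq, DESeq and GRCh38 are listed in the submitters' processing notes, and the annotation is not given in the sources used here. The study tested counts, which were not used here. Instead log2(FPKM + 1) was fitted for 11222 genes (at least 1 FPKM in at least 2 of 4 libraries) by limma 3.58.1 under R 4.3.3 (trend option on), by group and without a block. The fit was tested on simulated data. Symbols turned into dates (28) or repeated (2) are no members.

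The members and lists were chosen with earlier results of these data known. Members named with all values were those with a listed 0 beside at least 20 FPKM, those called, those not overlapping with a log2 fold change of at least 0.3 in size, and the most abundant. Other members were named by subgroup. Partner genes were named if called or the most abundant of their list, and SRPK1 and PTBP1 were added after their values were seen. Words of 50 bases were matched on both strands to the GENCODE 29 transcripts with Python 3.11.15, from the longest coding transcript of each gene. The 60-base stretch starts at the first exon of at least 60 bases after the one with the start codon, in the transcript with the longest coding sequence and was set against the best match in the relative. Alternatives changed the pseudocount, filter, scaling (TMM factors computed directly on the FPKM), trend, block, libraries and listed zeros.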

Additional observations from a re-analysis of the deposited data

How the results depend on the processing

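Depth is unknown and each group has 2 libraries, so small differences in low genes such as HNRNPR and HNRNPA1L2 are the least secure. The members called higher were 2, and 1 with at least 1 FPKM in all 4 libraries, with the listed zeros of HNRNPC and HNRNPD set to missing, or with both genes left out, and 1 to 4 with any single library left out. The member called lower was 1, and the count was 0 with at least 1 FPKM in all 4 libraries, 2 with size factors, TMM factors or quantile normalization (HNRNPA1L2 added) or with no trend (HNRNPA1 added), and 1 to 2 with each library left out, being 2 without si-NC replicate 1 or si-152 replicate 2 (HNRNPD added). Without si-NC replicate 2 HNRNPR was lost and the single call was HNRNPD, through its listed 0. When a library is left out, the lone sample of its group is assumed to vary like the other group. Without si-NC replicate 1, 4 members were called higher (HNRNPDL and HNRNPH2 added), and without si-152 replicate 1 or si-152 replicate 2 it was 1, as HNRNPC then missed the filter. The median of the hnRNP genes was -0.080 without si-NC replicate 2 and lay between -0.080 and 0.14 with each library left out, and that of the SRSF genes lay between -0.11 and 0.05, above 0 only without si-NC replicate 1.

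Over all genes, 212 were called higher and 280 lower. Without a filter it was 362 and 434, and with each library left out it was 150 to 423 and 126 to 514, the highest being those without si-NC replicate 1 and without si-152 replicate 2 and the lowest of the lower genes that without si-152 replicate 1. At an adjusted p under 0.05 there were 2 genes by limma, 1 with a pseudocount of 0.1, no filter, size factors, TMM factors, quantile normalization or no trend, and 39 to 71 with each library left out. It was 0 with at least 1 FPKM in all 4 libraries (204 higher and 254 lower at an unadjusted p under 0.05) and 0 with the listed zeros set to missing (210 higher and 281 lower).

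The replicate numbers do not come with a shared batch in the labels. The deviations of same-numbered libraries correlated at 0.52 across all tested genes and at 0.18 across the tested members without HNRNPC and HNRNPD. With the replicate number as a block, 3 members were called higher (HNRNPC, HNRNPL and HNRNPDL) and 5 lower (HNRNPR, HNRNPA1, HNRNPA1L2, HNRNPF and HNRNPD), among 981 genes higher and 912 lower in all, of which 78 passed adjustment. HNRNPL and HNRNPR then passed it too, at an adjusted p of 0.0326 and 0.0412 by limma. Under the block the SR kinases and phosphatases, the transport receptors and the decay factors each had 1 gene called higher, the SR-related proteins had 1 called lower, and the other splicing regulators had 5 higher and 6 lower.

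Among the partner lists, 1 SR-related protein, 1 decay factor and 1 other splicing regulator were called higher without si-NC replicate 1, and likewise without si-152 replicate 2. With each library left out, the list medians lay between 0.032 and 0.23 for the kinases and phosphatases, -0.17 and 0.12 for the SR-related proteins, 0.0058 and 0.14 for the transport receptors, -0.042 and 0.15 for the other splicing regulators and 0.014 and 0.26 for the decay factors.

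The fitted log2 difference of HNRNPD was -3.56 with its listed 0, which is no measure of a fold change, and 0.089 with the 0 set to missing, and it ranged from -7.21 to 0.089 with each library left out. Of the 30 tested members other than HNRNPC and HNRNPD, 18 changed sign when some library was left out and 12 did not, the widest range being that of HNRNPH2 (-0.34 to 0.62). SRSF5 was at -0.018 with size factors and with TMM factors, SRSF9 at 0.027 with quantile normalization. Among the members given with all their values, leaving out each library in turn gave ranges of -0.0084 to 0.14 for HNRNPA2B1, -0.062 to 0.13 for HNRNPK, -0.21 to 0.045 for SRSF2, -0.11 to 0.12 for SRSF5 and -0.24 to 0.14 for SRSF9.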
